A study of Mus musculus with 12 samples.

Results

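The genes described here encode the proteasome, the protease complex that degrades ubiquitin-tagged proteins in the cytosol and nucleus, and its immune form, the immunoproteasome. They were taken as every gene of the deposited table whose symbol began with Psm, a letter from a to g and a number, and whose value reached 1 in at least 3 of the 12 libraries. Such names were carried by 54 of the 53465 genes in the table; 4 names of pseudogenes were left out, and Psmb11, the thymus-specific catalytic subunit, was above 0 in 1 library only, at 2.8. The remaining 49 members were among 20419 genes that passed the same minimum. They comprised 5 inducible members (Psmb8, Psmb9, Psmb10, Psme1, Psme2), 31 constitutive subunits, 7 assembly chaperones, 3 other activators or inhibitors (Psme3, Psme4, Psmf1) and the testis subunit Psma8. A further 2 names met the rule without being subunits of the standard particle: Psmc3ip, a recombination protein, and Psme2b, a near-identical copy of Psme2.

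The proteasome is a barrel of stacked rings, the 20S core, capped by regulatory particles. The outer rings are built of alpha subunits (Psma genes), and the inner rings of beta subunits (Psmb genes), of which Psmb5, Psmb6 and Psmb7 carry the constitutive active sites. The 19S cap, made of ATPases (Psmc genes) and non-ATPase subunits (most Psmd genes), recognises and unfolds ubiquitinated proteins. Interferons and other inflammatory signals are known to induce Psmb8, Psmb9 and Psmb10, which take the places of Psmb5, Psmb6 and Psmb7 in newly assembled cores and alter the peptides made for MHC class I molecules. They also induce Psme1 and Psme2, whose products form the PA28 cap.

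The libraries were RNA-seq of macrophages taken from the peritoneum of 10-week-old C57BL/6 mice (postnatal week 10). They formed 4 groups of 3: Lyz2Cre-BHLHE40-Fl with LPS, Lyz2Cre-BHLHE40-Fl control, Lyz2Cre with LPS and Lyz2Cre control. All 4 groups carry Lyz2Cre, a Cre recombinase driven from the lysozyme 2 locus and active in macrophages, neutrophils and other myeloid cells, and the Lyz2Cre groups serve as the reference for the BHLHE40-Fl allele, whose abbreviation the labels do not spell out. BHLHE40, a transcription factor of the helix-loop-helix family, is the gene the allele names, and the series title asks how it shapes the inflammatory response of macrophages. LPS, lipopolysaccharide of Gram-negative bacteria, is sensed by TLR4; neither its dose nor its duration is stated in these sources. The labels do not say whether the replicates were separate animals or cultures, and p-values therefore reflect just the scatter among the sequenced libraries, which may be technical.

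Each library held 20489417 to 29354869 reads, recovered from deposited values that are reads over 1 factor per library. The check of the genotype label went against it: Bhlhe40 averaged 7893 ± 239 in the controls labelled Lyz2Cre-BHLHE40-Fl and 4976 ± 295 in those labelled Lyz2Cre (SD, n = 3 each; log2 difference 0.67, limma adjusted p = 6.32e-06). With LPS it averaged 2232 ± 244 in libraries labelled Lyz2Cre-BHLHE40-Fl and 2467 ± 226 in those labelled Lyz2Cre (limma adjusted p = 0.201). Which exons the allele removes is not given, so reads summed over the gene need not show it. All 8 macrophage markers were above 0 in every group, with a summed level of 87322 to 91097 in Lyz2Cre-BHLHE40-Fl with LPS, 60886 to 69288 in its controls, 160410 to 167805 in Lyz2Cre with LPS and 117673 to 129681 in its controls. In controls Cd68 overlapped between labels, at 47469, 39383 and 45760 in Lyz2Cre-BHLHE40-Fl and 43868, 49284 and 42770 in Lyz2Cre. The other macrophage markers were lower in Lyz2Cre-BHLHE40-Fl controls, by unequal amounts. Itgam stood at 1274, 1153 and 1111 there, against 9577, 9548 and 9965 in Lyz2Cre controls. Adgre1 stood at 5680, 5854 and 5370, against 30071, 31292 and 30006. The 8 mesothelial markers, of the lining of the cavity, summed to 1273 to 1605 and 1818 to 2496 in the Lyz2Cre-BHLHE40-Fl LPS and control groups, against 7.8 to 27.8 and 10.1 to 19.4 in the Lyz2Cre LPS and control groups, where Upk3b was at 0 in all 6 libraries. The 6 fibroblast markers summed to 10795 to 14331 and 9521 to 12070 in the Lyz2Cre-BHLHE40-Fl LPS and control groups, and to 3121 to 4608 and 1935 to 2103 in the Lyz2Cre LPS and control groups. The 6 markers of T and NK cells summed to 0 to 3.6 and 3.2 to 5.7 in the Lyz2Cre-BHLHE40-Fl LPS and control groups, where Cd3e and Ncr1 were at 0, against 48.2 to 65.3 and 53.5 to 65.3 in the Lyz2Cre LPS and control groups. The 7 neutrophil markers summed to 135 to 229 and 73.3 to 96.7 in the Lyz2Cre-BHLHE40-Fl LPS and control groups and to 980 to 1233 and 415 to 756 in the Lyz2Cre LPS and control groups, with Ly6g at 0 in all 12 libraries. Most of each sum was S100a8, and Camp and Ngp were also lower in Lyz2Cre-BHLHE40-Fl. Cxcr2 went the other way in controls, at 21.8, 15.8 and 28.3 in Lyz2Cre-BHLHE40-Fl and 0.0, 2.4 and 2.5 in Lyz2Cre. The 3 endothelial markers summed to 1788 to 1918 and 783 to 873 in the Lyz2Cre-BHLHE40-Fl LPS and control groups, and to 1456 to 1753 and 269.7 to 440 in the Lyz2Cre LPS and control groups. Most of each sum was Kdr, and the other markers did not follow it. Pecam1 stood at 1.5, 0.8 and 2.2 in Lyz2Cre-BHLHE40-Fl controls, against 10.8, 17.0 and 6.7 in Lyz2Cre controls. Cdh5 with LPS stood at 80.8, 76.7 and 73.9 in Lyz2Cre-BHLHE40-Fl, against 155.6, 140.7 and 155.5 in Lyz2Cre, and overlapped in controls. The 4 mast cell markers summed to 5.9 to 18.3 and 15.2 to 23.7 in the Lyz2Cre-BHLHE40-Fl LPS and control groups, and to 27.6 to 47.2 and 34.4 to 68.9 in the Lyz2Cre LPS and control groups. Over all libraries the sums lay between 19.7 and 88.9 for 5 B cell markers and between 61.5 and 137 for 4 dendritic cell markers. The dendritic cell markers went different ways in controls. Zbtb46 was higher in Lyz2Cre-BHLHE40-Fl, at 74.9, 50.5 and 66.7, against 18.5, 20.3 and 10.0 in Lyz2Cre. Clec9a was lower, at 5.1, 7.1 and 3.6, against 53.1, 74.6 and 72.0. Flt3 was lower too, at 0.0, 0.0 and 0.7, against 7.7, 20.3 and 11.7, and Xcr1 overlapped. The part of these other cells in the differences between genotype labels was not tested, and in such bulk samples fewer cells of a type and less RNA per cell cannot be told apart. In Lyz2Cre-BHLHE40-Fl with LPS, replicate 1 stood apart from replicates 2 and 3 in its mitochondrial share of reads (0.756%, 1.92% and 1.89%).

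The inducible members lie at 3 places in the mouse genome (build GRCm38, GENCODE M21). Psmb8 (chr17:34197721-34201454, plus strand) and Psmb9 (chr17:34181987-34187764, minus strand) flank the peptide transporter gene Tap1 in the major histocompatibility region. Psme1 (chr14:55578123-55581529, plus strand) and Psme2 (chr14:55587441-55591113, minus strand) are neighbours, and Psmb10 lies alone at chr8:105935735-105938444 on the minus strand. The promoter stretches below (GRCm38.p6) show the region just before the RefSeq start of each inducible member and of the counterparts Psmb5 and Psmb6. Levels of the inducible members and of Psmb6 separated LPS from control libraries in both labels. Those of Psmb5 did so in Lyz2Cre but overlapped in Lyz2Cre-BHLHE40-Fl. The stretches of Psmb8, Psmb9 and Psme1 lie inside the GENCODE gene bounds given above, so the bases before those bounds are not shown. The stretch of Psme1 runs on past its RefSeq start, and its marked match lies after that start. Capitals mark matches to 4 motifs that a search of both strands found: TTCNNNGAA (interferon-gamma activated site) in Psmb8, GAAA, any 2 bases and GAAA again (interferon-stimulated response element, here on the opposite strand) in Psme1, CACGTG (E-box) in Psmb10 and TGACNNNGC (antioxidant response element) in Psmb5 and Psmb6.
Psmb8 (chr17:34197995-34198194, plus strand): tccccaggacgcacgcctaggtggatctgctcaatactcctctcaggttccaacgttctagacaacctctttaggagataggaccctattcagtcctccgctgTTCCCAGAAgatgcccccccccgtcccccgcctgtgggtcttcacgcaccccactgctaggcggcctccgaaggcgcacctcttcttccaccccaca
Psmb9 (chr17:34187331-34187530, minus strand): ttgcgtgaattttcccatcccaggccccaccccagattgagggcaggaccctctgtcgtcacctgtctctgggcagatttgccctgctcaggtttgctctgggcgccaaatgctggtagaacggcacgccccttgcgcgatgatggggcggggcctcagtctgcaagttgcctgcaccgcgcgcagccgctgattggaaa
Psmb10 (chr8:105938393-105938592, minus strand): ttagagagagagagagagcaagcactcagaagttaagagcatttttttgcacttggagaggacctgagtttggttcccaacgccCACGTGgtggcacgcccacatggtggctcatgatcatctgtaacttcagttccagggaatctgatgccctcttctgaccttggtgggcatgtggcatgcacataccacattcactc
Psme1 (chr14:55578294-55578514, plus strand): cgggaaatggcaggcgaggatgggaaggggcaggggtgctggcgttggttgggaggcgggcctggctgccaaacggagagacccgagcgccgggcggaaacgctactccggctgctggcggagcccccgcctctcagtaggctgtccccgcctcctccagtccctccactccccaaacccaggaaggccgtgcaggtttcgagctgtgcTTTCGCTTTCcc
Psme2 (chr14:55591102-55591301, minus strand): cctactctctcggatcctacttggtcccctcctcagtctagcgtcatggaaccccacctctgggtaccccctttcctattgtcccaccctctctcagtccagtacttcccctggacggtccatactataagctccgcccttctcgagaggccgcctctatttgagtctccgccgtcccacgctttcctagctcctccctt
Psmb5 (chr14:54617996-54618195, minus strand): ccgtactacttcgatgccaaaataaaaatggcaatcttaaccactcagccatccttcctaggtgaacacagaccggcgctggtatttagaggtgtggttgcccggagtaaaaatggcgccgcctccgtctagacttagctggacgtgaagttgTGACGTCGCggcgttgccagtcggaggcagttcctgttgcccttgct
Psmb6 (chr11:70525157-70525356, plus strand): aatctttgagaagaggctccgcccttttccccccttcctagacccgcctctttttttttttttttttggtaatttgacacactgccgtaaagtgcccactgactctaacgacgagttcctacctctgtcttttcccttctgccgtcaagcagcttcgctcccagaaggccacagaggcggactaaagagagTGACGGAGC

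Of the 49 members 41 had a promoter in the RefSeq table, over 44 windows of 250 bases before to 50 after the start, and the shares below set them beside all 32851 windows. The interferon-stimulated element was in 3.44% of all windows and in those of 5 of the 41 members, of which Psme1 was the inducible member. TTCNNNGAA was in 8.30% of all windows and 3 of 41 members, Psmb8 among them. The NF-kB consensus was in 8.46% of all windows and 6 of 41 members, with no inducible member among them. TGACNNNGC was in 12.4% of all windows and 6 of 41 members, and CACGTG in 7.15% and 4 of 41. CCAAT, which is not in capitals above, was in 37.4% of all windows and 14 of 41 members. No match overlapped one to another motif; the 1 overlapping pair was of CCAAT with itself on the opposite strand, in Psmd14. A match is a stretch of letters, and these windows say nothing of which factor was bound. For Psmb8, Psmb9 and Psme1 the stretches shown lie inside the GENCODE gene, so a missing match is not absence from the whole promoter.

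All 5 inducible members were called higher with LPS in both genotype labels, beside 24.9% (Lyz2Cre-BHLHE40-Fl) and 25.0% (Lyz2Cre) of all genes tested. In each, all 3 LPS libraries were above all 3 controls, and each of these 10 calls held under every other scaling tried. Here and below, the share of all genes whose groups did not overlap is not given, so non-overlap alone sets no member apart. Psmb8, the inducible chymotrypsin-like subunit (LMP7), stood at 16603, 13075 and 14036 in the Lyz2Cre-BHLHE40-Fl LPS libraries, against 1503, 1858 and 1528 in their controls, and at 14312, 15653 and 15593 in the Lyz2Cre LPS libraries, against 4948, 5234 and 3967 in their controls. The 6 LPS libraries lay together, while the controls fell into separate levels by genotype label. The log2 change with LPS was 3.16 (SE 0.108, limma adjusted p = 3.56e-14) in libraries labelled Lyz2Cre-BHLHE40-Fl and 1.70 (SE 0.108, limma adjusted p = 2.93e-10) in those labelled Lyz2Cre.

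Psmb9 (LMP2), which replaces Psmb6, showed the largest change of any member with LPS in libraries labelled Lyz2Cre-BHLHE40-Fl, from the lowest control level of the 5. Its values were 5311, 4434 and 5218 in the Lyz2Cre-BHLHE40-Fl LPS libraries, against 255, 381 and 309 in their controls, a 15.8-fold ratio of means (log2 3.995, SE 0.149, limma adjusted p = 1.25e-13). In Lyz2Cre they were 4665, 4970 and 4896 with LPS, against 1176, 1257 and 789 in controls, 4.51-fold (log2 2.20, limma adjusted p = 7.20e-10). The exons of Psmb9 overlap those of Tap1 on the opposite strand over 212 bases, and the strand setting of the counting is not given, so reads of the shared stretch cannot be told apart. Psmb10 (MECL-1), which replaces Psmb7, stood at 15685, 13441 and 14270 in the Lyz2Cre-BHLHE40-Fl LPS libraries, against 1238, 1297 and 1299 in their controls (log2 3.50, SE 0.088, limma adjusted p = 5.72e-16). In Lyz2Cre its values were 13522, 14704 and 14579 with LPS, against 2427, 2503 and 1928 in controls (log2 2.65, limma adjusted p = 3.74e-14), the largest change of any member in that label.

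The PA28 genes moved the same way. Psme1 (PA28 alpha) stood at 8279, 7292 and 7389 in the Lyz2Cre-BHLHE40-Fl LPS libraries, against 1677, 1327 and 1398 in their controls, and at 8654, 10007 and 9724 in the Lyz2Cre LPS libraries, against 2772, 3304 and 2842 in controls. Psme2 (PA28 beta) stood at 5834, 5338 and 5361 in the Lyz2Cre-BHLHE40-Fl LPS libraries, against 551, 549 and 475 in their controls, and at 4545, 4879 and 4706 in the Lyz2Cre LPS libraries, against 1019, 1268 and 907 in controls. The LPS and control groups did not overlap in either gene. The log2 changes were 2.39 and 3.39 in libraries labelled Lyz2Cre-BHLHE40-Fl (limma adjusted p = 2.29e-13 and 4.08e-15) and 1.67 and 2.16 in those labelled Lyz2Cre (limma adjusted p = 4.52e-11 and 3.07e-12), for Psme1 first and Psme2 second. Reads of Psme2 and of its copy Psme2b, 99.4% identical over 794 bases, cannot be told apart with confidence; Psme2b averaged 312 ± 19.2 and 276 ± 29.7 with LPS in libraries labelled Lyz2Cre-BHLHE40-Fl and Lyz2Cre, against 56.3 ± 15.4 and 54.6 ± 16.5 in their controls (SD, n = 3 each).

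**Figure D1:**
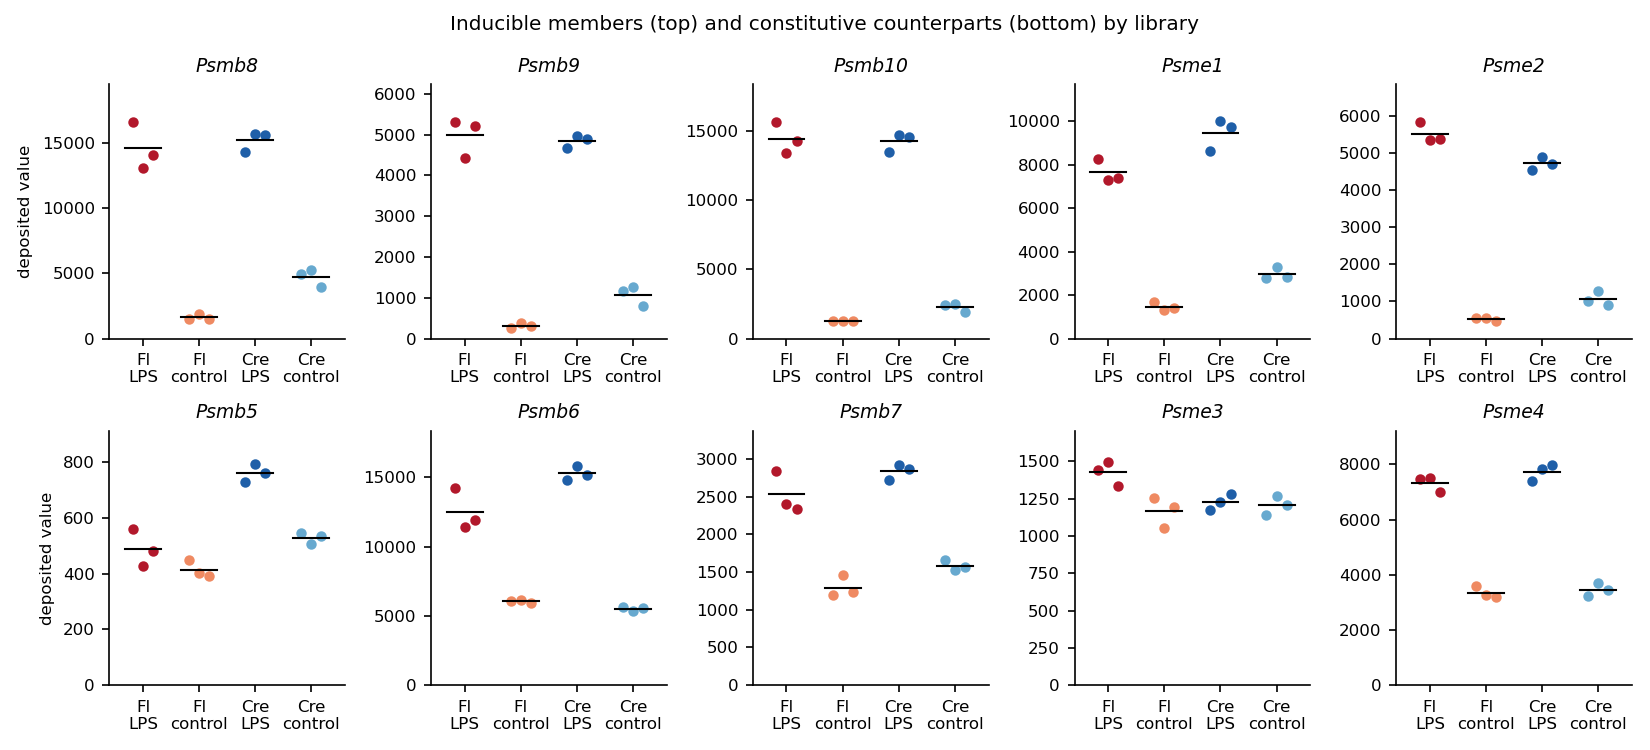
Deposited values (reads over a factor per library, linear axes from 0) of the 5 inducible members in the upper row and of Psmb5, Psmb6, Psmb7, Psme3 and Psme4 in the lower row, with 1 point per library and a line at the group mean. On the axis Fl is the label Lyz2Cre-BHLHE40-Fl and Cre the label Lyz2Cre. The 5 upper panels show LPS libraries above controls in both labels and Fl controls below Cre controls.

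Within each library the inducible catalytic subunits gained on the subunits whose places they take, a comparison that no scaling by 1 factor per library can move. Per length of transcript, Psmb8 over Psmb5 was 16.4, 16.9 and 16.1 in the Lyz2Cre-BHLHE40-Fl LPS libraries, against 1.84, 2.55 and 2.15 in their controls, and 10.9, 10.9 and 11.3 in the Lyz2Cre LPS libraries, against 4.99, 5.72 and 4.09 in controls. Psmb10 over Psmb7 averaged 5.07 ± 0.275 with LPS and 0.880 ± 0.0824 in controls of the label Lyz2Cre-BHLHE40-Fl, and 4.45 ± 0.0504 with LPS and 1.28 ± 0.180 in controls of the label Lyz2Cre (SD, n = 3 each). Psmb9 over Psmb6 stayed below 1 in every library, at 0.236 ± 0.0198 with LPS and 0.0306 ± 0.00592 in controls of Lyz2Cre-BHLHE40-Fl, and at 0.187 ± 0.00288 with LPS and 0.116 ± 0.0289 in controls of Lyz2Cre (SD, n = 3 each). All 6 LPS libraries were above all 6 controls in each of the 3 ratios. With LPS labels permuted within each genotype label, the log2 ratios rose by 2.05 (Psmb8 over Psmb5), 1.84 (Psmb9 over Psmb6) and 2.17 (Psmb10 over Psmb7), each with a two-sided exact permutation p of 0.005, the smallest that 400 arrangements allow, and 0.01 after adjustment over 6 tests. Quantile normalization, which is not a scaling by 1 factor, moved some of these changes. The log2 change of Psmb8 over Psmb5 with LPS in Lyz2Cre was 0.31 under it, against 1.17 in the deposited scaling, and over both labels 1.35, against 2.05. For Psmb9 over Psmb6 the change in Lyz2Cre was 1.22, against 0.73.

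Between genotype labels the same ratios differed in opposite directions with and without LPS. Without LPS the log2 ratio was lower in libraries labelled Lyz2Cre-BHLHE40-Fl than in those labelled Lyz2Cre by 1.18 (value -1.18) for Psmb8 over Psmb5, 1.90 (-1.90) for Psmb9 over Psmb6 and 0.53 (-0.53) for Psmb10 over Psmb7. With LPS it was higher by 0.58, 0.33 and 0.19 in the same order of ratios, the last of which was 0.33 under quantile normalization. The 3 libraries of each label did not overlap in any of these 6 comparisons, but 3 against 3 libraries cannot go below an exact permutation p of 0.1, which each gave. Pooled over both treatments, the genotype label gave exact permutation p of 0.33, 0.1 and 0.245 in the same order (0.33, 0.15 and 0.294 adjusted over the 6 tests). The pooled test averages the differences with and without LPS, whose opposite signs partly cancel. It therefore cannot tell whether the labels differed within either treatment. With LPS, and in the deposited scaling, the labels differed mainly in the constitutive subunits. Psmb5, Psmb6 and Psmb7 averaged 490, 12518 and 2530 in Lyz2Cre-BHLHE40-Fl, against 762, 15288 and 2837 in Lyz2Cre. Psmb8, Psmb9 and Psmb10 averaged 14571, 4988 and 14465, against 15186, 4844 and 14268. Which side of a ratio carries the difference depends on the scaling. Equal library totals and quantile normalization called Psmb10 higher in Lyz2Cre-BHLHE40-Fl with LPS.

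**Figure D2:**
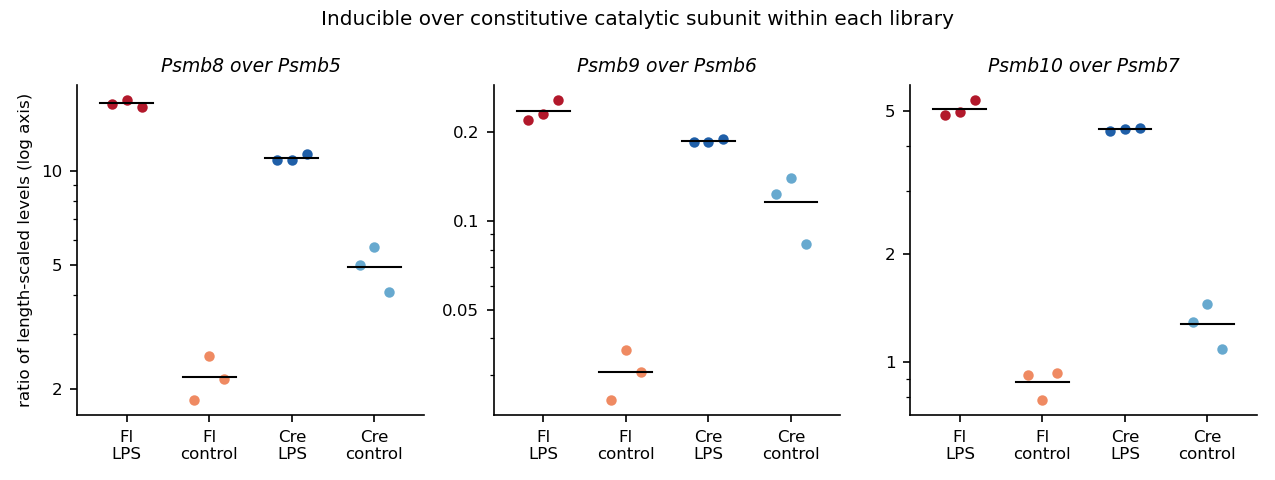
Ratio of transcript-length-scaled levels within each library (log axes) for Psmb8 over Psmb5, Psmb9 over Psmb6 and Psmb10 over Psmb7, with 1 point per library and a line at the group mean (Fl: Lyz2Cre-BHLHE40-Fl; Cre: Lyz2Cre). The order of the group means is the same in all 3 panels: Fl LPS, Cre LPS, Cre control, Fl control from high to low.

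Most other members were also called higher with LPS in the deposited scaling, but by less, and that direction depends on how libraries are put on 1 scale. In libraries labelled Lyz2Cre-BHLHE40-Fl 39 of the 49 members were called higher and 3 lower, beside 24.9% higher and 25.6% lower (50.5% in all) of the 20419 genes tested (limma adjusted p below 0.05). In those labelled Lyz2Cre 38 were called higher and 4 lower, beside 25.0% and 23.9% (48.9% in all) of the genes tested. The median log2 change of the members was 0.65 and 0.54, against -0.05 and 0.00 over all genes tested, in libraries labelled Lyz2Cre-BHLHE40-Fl and Lyz2Cre. Leaving out control replicate 1 or LPS replicate 2 of Lyz2Cre-BHLHE40-Fl left 1 member called lower there in place of 3, since Psma8 and Psmd8 were then not called.

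With every library set to the same total, the split of calls was 18 higher and 17 lower in Lyz2Cre-BHLHE40-Fl and 15 higher and 22 lower in Lyz2Cre. Of the 20741 genes tested with that scaling, 12.6% were called higher and 46.1% lower in Lyz2Cre-BHLHE40-Fl, and 11.5% and 45.8% in Lyz2Cre. That scaling moved the median of all genes to -0.56 and -0.57, and relative to it the members' medians were 0.59 and 0.38. Quantile normalization gave 29 higher and 5 lower in Lyz2Cre-BHLHE40-Fl and 25 higher and 8 lower in Lyz2Cre, beside 20.8% higher and 28.5% lower, and 21.1% and 27.6%, of all genes tested in these labels. Of all reads, the 31 constitutive subunits took 0.306% ± 0.0201 with LPS and 0.324% ± 0.00890 in controls of Lyz2Cre-BHLHE40-Fl, and 0.301% ± 0.00845 with LPS and 0.313% ± 0.0102 in controls of Lyz2Cre (SD, n = 3 each). The LPS and control libraries overlapped in these shares in both labels. The 5 inducible members took 0.153% ± 0.0151 with LPS and 0.0260% ± 0.00111 in controls of Lyz2Cre-BHLHE40-Fl, and 0.129% ± 0.00402 with LPS and 0.0534% ± 0.00688 in controls of Lyz2Cre (SD, n = 3 each). Their LPS and control libraries were far apart in both labels.

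Among the 31 constitutive subunits 26 were called higher and 1 lower with LPS in each genotype label, with median log2 changes of 0.64 in Lyz2Cre-BHLHE40-Fl and 0.52 in Lyz2Cre. The medians of the 5 inducible members, 3.39 and 2.16, exceeded these by 2.76 and 1.63 on the log2 scale. Of the 26 calls, 9 in Lyz2Cre-BHLHE40-Fl and 7 in Lyz2Cre were also made under each of the 4 other scalings, and 10 and 7 with equal library totals. The calls made under each scaling in both labels were of Psma2, Psma3, Psma4, Psma5, Psmb4 and Psmd11. Of these, Psma3, Psma4, Psma5 and Psmd11 have a near-identical pseudogene copy elsewhere in the genome, whose part in the calls was not tested.

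The alpha ring, which gates the core, held the largest of these changes. Psma5 stood at 1065, 756 and 844 in the Lyz2Cre-BHLHE40-Fl LPS libraries, against 178, 257 and 162 in their controls, and at 828, 972 and 1028 in the Lyz2Cre LPS libraries, against 314, 195 and 229 in controls. The groups did not overlap, and the log2 changes were 2.17 (SE 0.181, limma adjusted p = 1.14e-08) and 1.96 (SE 0.181, limma adjusted p = 4.70e-08). Psma3 averaged 913 ± 59.5 with LPS and 315 ± 51.1 in controls of Lyz2Cre-BHLHE40-Fl (log2 1.54), and 839 ± 24.6 with LPS and 393 ± 35.6 in controls of Lyz2Cre (log2 1.10; SD, n = 3 each). Psma4 changed by 1.14 and 1.20, with a mean of 2637 with LPS and 1191 in controls of Lyz2Cre-BHLHE40-Fl and of 3588 with LPS and 1559 in controls of Lyz2Cre. At the low end Psma1 averaged 2514 ± 285 with LPS and 2078 ± 162 in controls of Lyz2Cre-BHLHE40-Fl, a log2 change of 0.27 (limma adjusted p = 0.0152) that was -0.35 with equal totals and -0.16 under quantile normalization, and that lost its call without LPS replicate 1 or control replicate 3 of that label.

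Of the constitutive beta subunits, the catalytic ones changed unequally. Psmb6, the caspase-like subunit, stood at 14245, 11380 and 11928 in the Lyz2Cre-BHLHE40-Fl LPS libraries, against 6100, 6161 and 5943 in their controls (log2 1.04, limma adjusted p = 1.64e-09), and at 14825, 15854 and 15184 in the Lyz2Cre LPS libraries, against 5610, 5322 and 5583 in controls (log2 1.47, limma adjusted p = 1.36e-11). Psmb7, the trypsin-like subunit, stood at 2847, 2400 and 2344 in the Lyz2Cre-BHLHE40-Fl LPS libraries, against 1191, 1462 and 1230 in their controls, and at 2719, 2926 and 2866 in the Lyz2Cre LPS libraries, against 1658, 1530 and 1567 in controls. The LPS and control groups of Psmb6 and Psmb7 did not overlap in either label, although quantile normalization ended the call of Psmb6 in Lyz2Cre-BHLHE40-Fl and equal totals that of Psmb7 in Lyz2Cre. Psmb5, the chymotrypsin-like subunit, stood at 561, 426 and 482 in the Lyz2Cre-BHLHE40-Fl LPS libraries, against 450, 403 and 392 in their controls, which overlapped (log2 0.23, limma adjusted p = 0.0622). In Lyz2Cre its values of 728, 795 and 762 with LPS were above those of 547, 505 and 535 in controls (log2 0.52, limma adjusted p = 0.000236), a direction that equal library totals turned (-0.20). Psmb4, a structural beta subunit, changed by 1.09 in Lyz2Cre-BHLHE40-Fl and 1.20 in Lyz2Cre.

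Of the 6 ATPases of the 19S base, 5 in Lyz2Cre-BHLHE40-Fl and 4 in Lyz2Cre were called higher, with median log2 changes of 0.48 and 0.37. None had a log2 change above 0.71 (Psmc2, in Lyz2Cre-BHLHE40-Fl), and none of the 9 calls was made with equal library totals, which turned the sign of 3 of the 5 and of all 4. Of the 11 non-ATPase subunits 8 were called higher in Lyz2Cre-BHLHE40-Fl and 9 in Lyz2Cre. Psmd11, which holds the lid together, averaged 1322 ± 178 with LPS and 635 ± 51.5 in controls of Lyz2Cre-BHLHE40-Fl, and 1648 ± 32.4 with LPS and 774 ± 44.4 in controls of Lyz2Cre (SD, n = 3 each), log2 changes of 1.05 and 1.09 that stayed called under each scaling. Psmd1, the large scaffold of the base, was the constitutive subunit called lower in Lyz2Cre, at 3298 ± 90.3 with LPS and 4218 ± 98.1 in controls (SD, n = 3 each; log2 -0.35, limma adjusted p = 5.78e-05), and that call held under each scaling. In Lyz2Cre-BHLHE40-Fl it averaged 2954 ± 89.8 with LPS and 2847 ± 82.5 in controls (log2 0.05, limma adjusted p = 0.493). There it was called lower with equal totals (log2 -0.57, limma adjusted p = 8.36e-08) and under quantile normalization (log2 -0.47, limma adjusted p = 2.80e-06), and not under the other scalings.

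Among the 7 assembly chaperones Psmd10 (gankyrin), which acts on the base, had the largest change in both labels. It stood at 2166, 1947 and 1891 in the Lyz2Cre-BHLHE40-Fl LPS libraries, against 649, 606 and 629 in their controls, and at 2683, 2906 and 2824 in the Lyz2Cre LPS libraries, against 911, 772 and 989 in controls. The log2 changes, 1.67 and 1.66 (SE 0.087 each, limma adjusted p = 1.36e-11 and 1.82e-11), held under each scaling. Psmg1, a chaperone of alpha-ring assembly, was called lower, at 140 ± 23.1 with LPS and 195 ± 12.3 in controls of Lyz2Cre-BHLHE40-Fl (log2 -0.49) and 137 ± 3.26 with LPS and 227 ± 17.1 in controls of Lyz2Cre (log2 -0.72; SD, n = 3 each), although quantile normalization ended the call in Lyz2Cre-BHLHE40-Fl. Psmd5, another base chaperone, was called lower in Lyz2Cre, at 824 ± 26.8 with LPS and 1152 ± 146 in controls, and not in Lyz2Cre-BHLHE40-Fl, at 825 ± 69.6 with LPS and 939 ± 65.7 in controls (SD, n = 3 each), and the difference between labels was not called (interaction log2 0.29, limma adjusted p = 0.155).

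Of the caps and inhibitors that interferon is not known for, Psme4 (PA200, a nuclear cap) stood at 7482, 7495 and 7007 in the Lyz2Cre-BHLHE40-Fl LPS libraries, against 3601, 3259 and 3195 in their controls, and at 7416, 7825 and 7986 in the Lyz2Cre LPS libraries, against 3223, 3685 and 3429 in controls. Its log2 changes of 1.13 and 1.17 (limma adjusted p = 1.46e-10 and 1.04e-10) held under each scaling. Psme3 (PA28 gamma), the nuclear relative of Psme1 and Psme2, stood at 1441, 1500 and 1339 in the Lyz2Cre-BHLHE40-Fl LPS libraries, against 1257, 1053 and 1197 in their controls, and at 1176, 1225 and 1282 in the Lyz2Cre LPS libraries, against 1143, 1270 and 1209 in controls. The Lyz2Cre groups of Psme3 overlapped (log2 0.02, limma adjusted p = 0.845), and its log2 change of 0.29 in Lyz2Cre-BHLHE40-Fl was -0.33 with equal totals. Psmf1 (PI31), a proteasome regulator first described as an inhibitor, stood at 977, 931 and 915 in the Lyz2Cre-BHLHE40-Fl LPS libraries, against 683, 606 and 609 in their controls, and at 981, 1030 and 905 in the Lyz2Cre LPS libraries, against 658, 722 and 629 in controls. Its log2 changes of 0.57 and 0.54 were -0.04 and -0.19 with equal totals. The testis subunit Psma8 averaged 25.0 ± 1.76 with LPS and 44.1 ± 13.8 in controls of Lyz2Cre-BHLHE40-Fl (SD, n = 3 each), a call lost without any of 3 libraries.

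**Figure D3:**
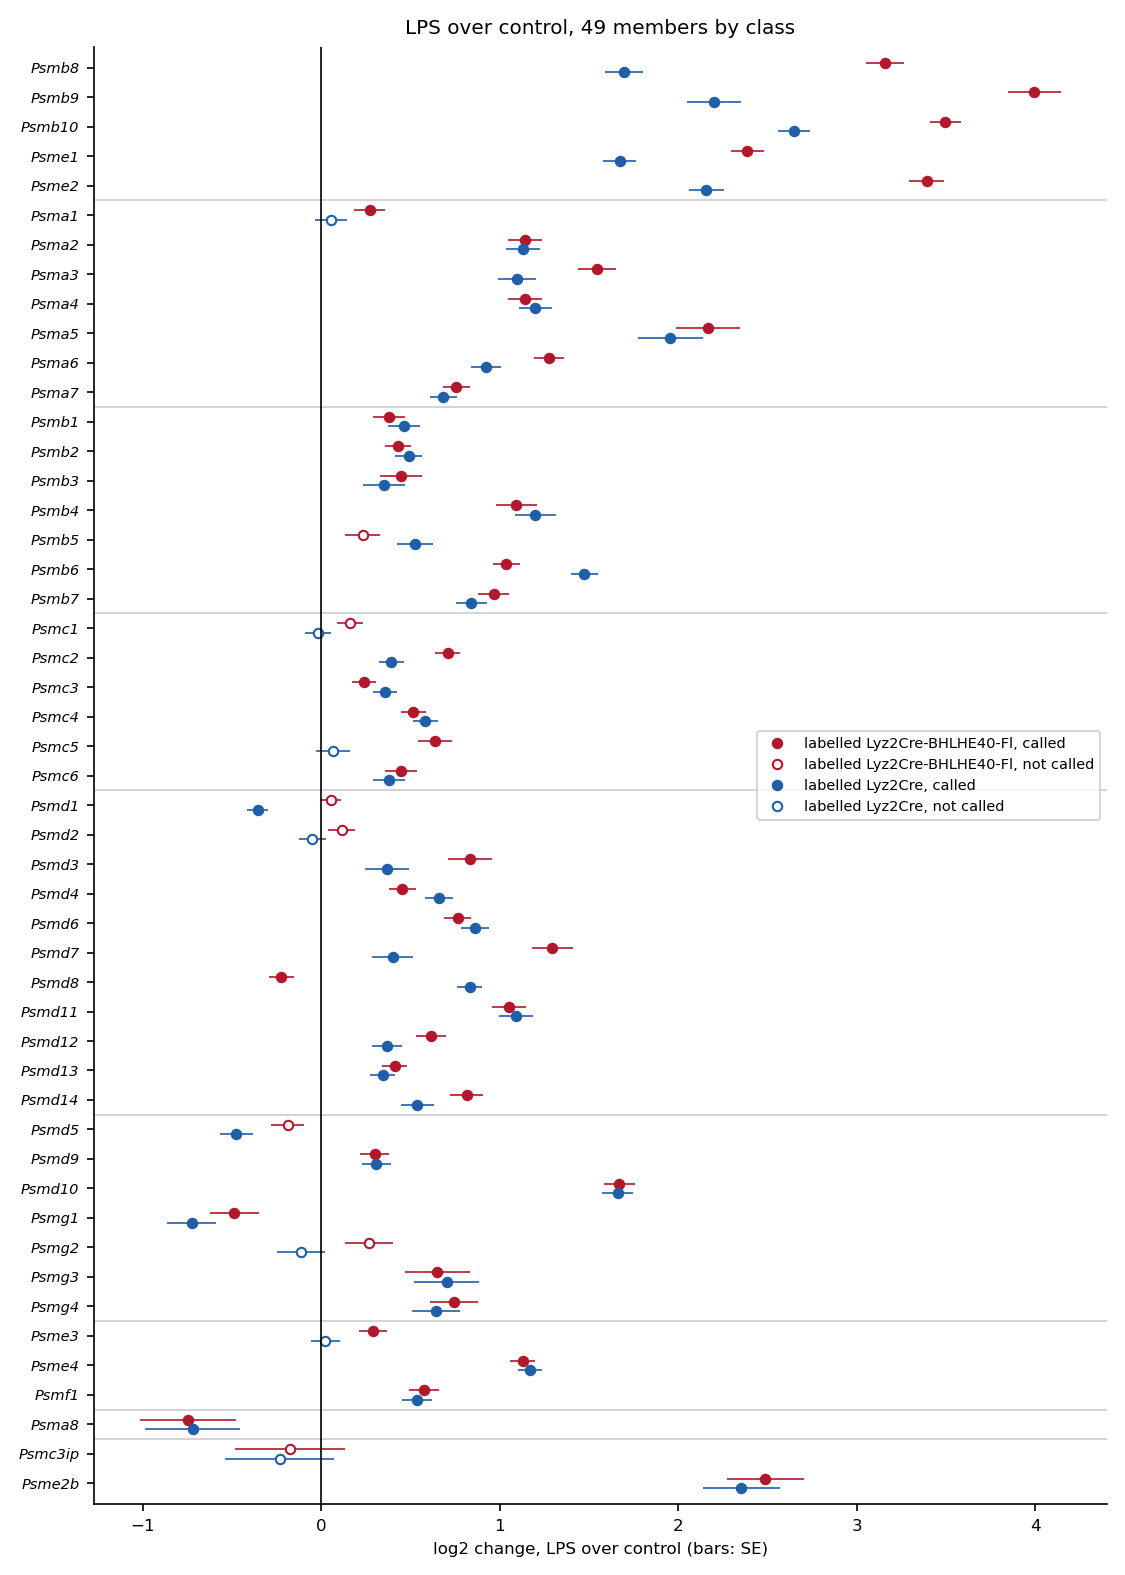
Log2 change with LPS over control for the 49 members, on the log2(value + 1) scale with bars of 1 SE, in libraries labelled Lyz2Cre-BHLHE40-Fl (red) and Lyz2Cre (blue); filled points passed the limma adjusted p threshold and lines separate the classes (from the top: inducible, alpha, beta, ATPase, non-ATPase, chaperones, other activators and inhibitor, Psma8, other names). The red points of the 5 inducible members lie between 2.39 and 3.995 and to the right of their blue points, which lie between 1.67 and 2.65. Psme2b and Psma5 are the other members near or above 2 in both labels.

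Without LPS the inducible members separated the genotype labels. All 5 were lower in Lyz2Cre-BHLHE40-Fl controls than in Lyz2Cre controls, under each scaling and with any library left out, and no Lyz2Cre-BHLHE40-Fl control reached the lowest Lyz2Cre control. The log2 differences were -1.76 for Psmb9 (SE 0.149, limma adjusted p = 4.09e-08), -1.53 for Psmb8 (SE 0.108, limma adjusted p = 3.50e-09), -1.02 for Psme1, -1.01 for Psme2 and -0.83 for Psmb10 (SE 0.088, limma adjusted p = 6.90e-07), the smallest. As folds, Psmb9 was 3.41-fold and Psmb8 2.89-fold lower by group means. Over all members 2 were called higher and 22 lower, beside 15.0% higher and 16.6% lower (31.6% in all) of the genes tested. With equal library totals, which moved the median of all genes to 0.17, the split was 6 higher and 12 lower, beside 24.6% and 12.2% of the genes tested, and under quantile normalization 4 higher and 15 lower, beside 19.5% and 14.9%.

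Among the 31 constitutive subunits 14 were called lower and 1 higher in Lyz2Cre-BHLHE40-Fl controls, with a median log2 difference of -0.24 against 0.00 over all genes. Psma7 of the alpha ring stood at 1667, 1685 and 1633 in controls labelled Lyz2Cre-BHLHE40-Fl, against 2594, 2381 and 2534 in those labelled Lyz2Cre (log2 -0.59, SE 0.078, limma adjusted p = 9.81e-06). Psmd1 (-0.57), Psma1 (-0.50), Psmd10 (-0.50) and Psmb2 (-0.49) followed. The calls of these 5 held under each scaling, as did 6 of the 14 for constitutive subunits. The members called higher were Psmg2, a chaperone of alpha-ring assembly, at 271 ± 29.2 and 192 ± 25.8 (SD, n = 3 each; log2 0.50, limma adjusted p = 0.00819), and Psmd8 (log2 0.20, limma adjusted p = 0.0397), whose call ended without replicate 1 or 3 of the Lyz2Cre-BHLHE40-Fl controls or replicate 1 or 2 of the Lyz2Cre controls, which left 1 member called higher.

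With LPS the genotype labels were not called different in 4 of the 5 inducible members. The log2 differences were -0.07 for Psmb8 (limma adjusted p = 0.682), 0.04 for Psmb9 (0.885 by the same limma adjustment), 0.02 for Psmb10 (0.914) and 0.23 for Psme2 (0.0857), with SEs of 0.088 to 0.149, and the groups overlapped in all but Psme2. Equal totals and quantile normalization called Psmb10 (0.30 and 0.31) and Psme2 (0.51 and 0.42) higher in Lyz2Cre-BHLHE40-Fl and turned the sign of Psmb8 (0.22 and 0.21, not called). Psme1 was called lower in LPS libraries labelled Lyz2Cre-BHLHE40-Fl (log2 -0.31, SE 0.093, limma adjusted p = 0.015), but not with equal totals, and quantile normalization turned its sign (0.0029). That call also ended without replicate 2 or 3 of the LPS libraries of either label.

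Over all members 6 were called higher and 15 lower with LPS in libraries labelled Lyz2Cre-BHLHE40-Fl, beside 17.7% higher and 19.8% lower (37.4% in all) of the genes tested. With equal library totals, which moved the median of all genes to 0.22, the split was 19 higher and 4 lower, beside 29.9% and 10.8% of the genes tested, and under quantile normalization 10 higher and 7 lower, beside 19.4% and 16.5%. Without LPS replicate 3 of Lyz2Cre-BHLHE40-Fl 9 members were called lower. The 6 called higher were called under each scaling, and 4 of the 15 called lower: Psma7 (-0.52), Psmb2 (-0.55), Psmb5 (-0.64) and Psmd8 (-0.86).

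Psmd8, a subunit of the 19S lid, stood at 11914, 10649 and 11227 in the Lyz2Cre-BHLHE40-Fl LPS libraries, against 20183, 21700 and 19339 in the Lyz2Cre LPS libraries (limma adjusted p = 3.02e-08). Its controls stood at 13846, 12330 and 13264 in Lyz2Cre-BHLHE40-Fl and 11257, 11205 and 11871 in Lyz2Cre. The Lyz2Cre LPS libraries were thus higher than all other 9. Among those higher in LPS libraries labelled Lyz2Cre-BHLHE40-Fl, the lid subunit Psmd7 stood at 1380, 2029 and 1895, against 1067, 1012 and 1195 in those labelled Lyz2Cre (log2 0.68, SE 0.116, limma adjusted p = 0.000146). The lid subunit Psmd3 stood at 1435, 2101 and 2224, against 1212, 1286 and 1187 (log2 0.62, limma adjusted p = 0.000628). The ATPase Psmc5 stood at 1559, 2055 and 2024, against 1270, 1346 and 1442 (log2 0.46, limma adjusted p = 0.000805). In these 3 genes replicate 1 of Lyz2Cre-BHLHE40-Fl with LPS, the library with the lower mitochondrial share, lay below replicates 2 and 3, and without it the log2 differences were 0.85, 0.82 and 0.59. In the same library 23 of the 31 constitutive subunits had their highest value of the 3 replicates, and 7 their lowest. The chaperone Psmg2 was also higher, at 328 ± 43.1 against 177 ± 14.2 (SD, n = 3 each; log2 0.88, limma adjusted p = 5.00e-05).

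**Figure D4:**
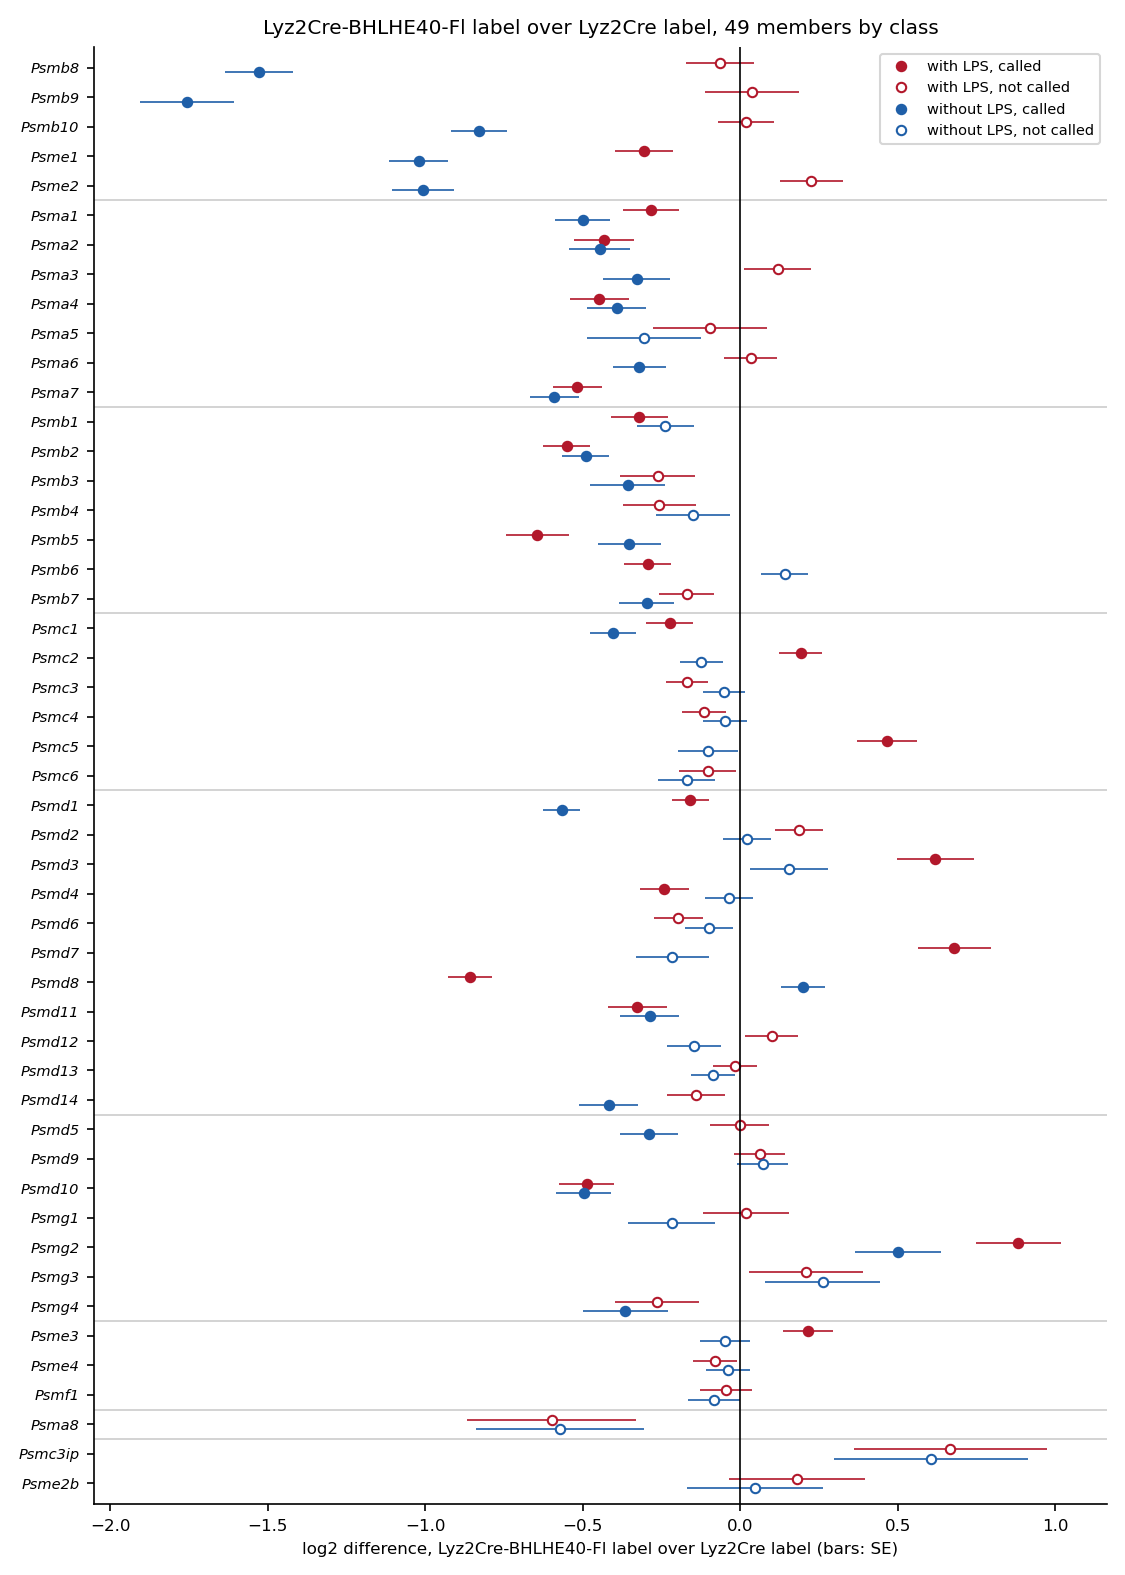
Log2 difference of the label Lyz2Cre-BHLHE40-Fl over the label Lyz2Cre for the 49 members, with bars of 1 SE, with LPS (red) and without LPS (blue); filled points passed the limma adjusted p threshold and lines separate the classes in the order of the plot of LPS changes. The blue points of the 5 inducible members lie at -0.83 or below, and their red points between -0.31 and 0.23.

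The change with LPS itself differed between labels (interaction of genotype label and LPS) for 13 of the 49 members, 11 with a larger and 2 with a smaller log2 change in libraries labelled Lyz2Cre-BHLHE40-Fl, beside 9.52% and 9.31% (18.8% in all) of the genes tested. All 5 inducible members were among the 11, under each scaling and with any library left out: Psmb9 (1.79, SE 0.211, limma adjusted p = 7.10e-06), Psmb8 (1.46), Psme2 (1.23), Psmb10 (0.85) and Psme1 (0.72, SE 0.132, limma adjusted p = 0.000725). The interaction is also the log2 label difference with LPS minus that in controls. For each inducible member the difference in controls was the larger in size. Of the 31 constitutive subunits 6 had a larger change: Psmd7 (0.90), Psmc5 (0.57), Psma3 (0.45), Psmd1 (0.41), Psma6 (0.35) and Psmc2 (0.32), of which Psma3, Psma6 and Psmc2 lost the call without any of 10, 8 and 7 of the 12 libraries in turn, and Psma3 and Psmc2 also under quantile normalization. A smaller change was called for Psmd8 (-1.06, SE 0.0996, limma adjusted p = 5.22e-07), lower with LPS in Lyz2Cre-BHLHE40-Fl (log2 -0.22) and higher with LPS in Lyz2Cre (log2 0.83, which quantile normalization turned to -0.28), and for Psmb6 (-0.44, limma adjusted p = 0.00717). Leaving out replicate 1 of Lyz2Cre-BHLHE40-Fl with LPS raised the number with a smaller change to 4.

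**Figure D5:**
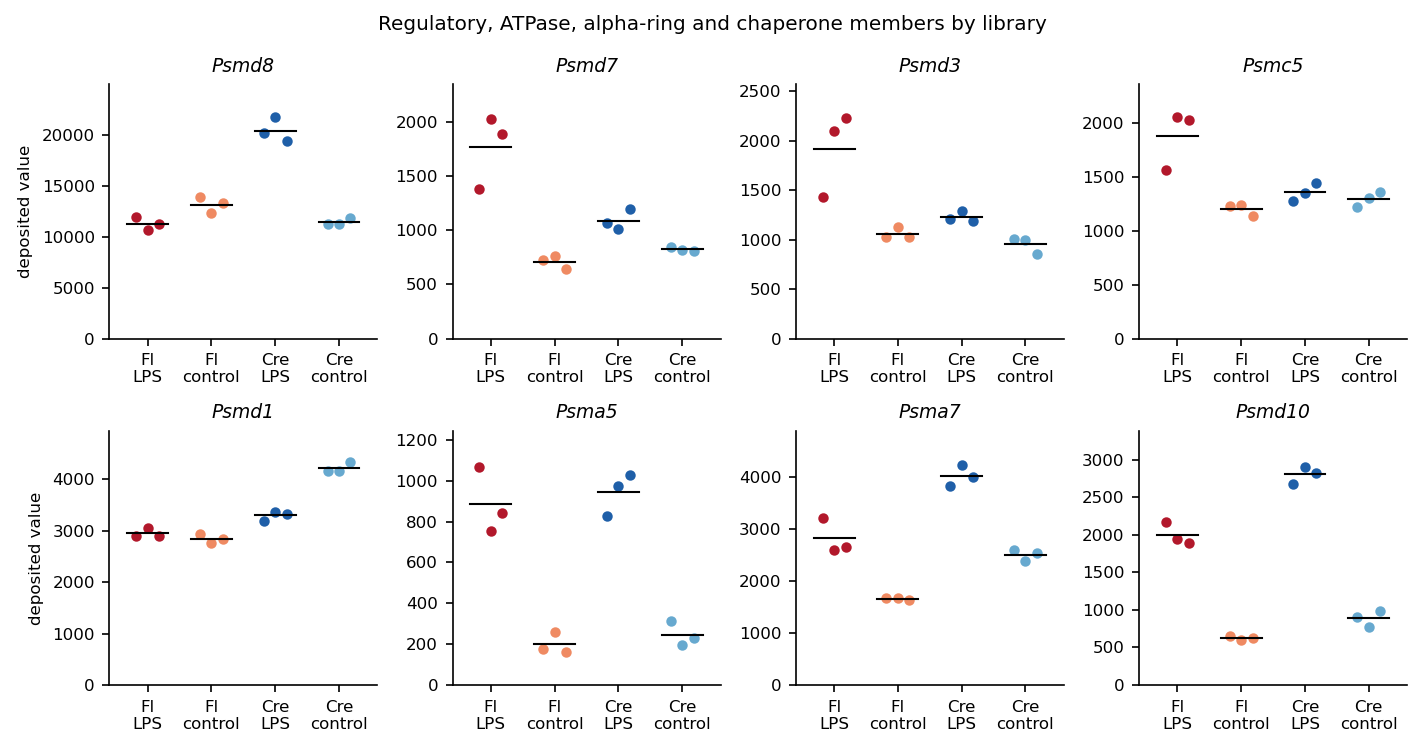
Deposited values by library (linear axes from 0, line at the group mean; Fl: Lyz2Cre-BHLHE40-Fl, Cre: Lyz2Cre) of the 19S members Psmd8, Psmd7, Psmd3, Psmc5 and Psmd1, the alpha subunits Psma5 and Psma7 and the chaperone Psmd10. The Cre LPS libraries of Psmd8 lie between 19339 and 21700, above all other libraries, and Psmd7, Psmd3 and Psmc5 are highest in Fl LPS replicates 2 and 3.

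Per length of transcript, the levels of subunits that sit once in each ring differed widely. Psmb6 averaged 12337 per kilobase over the 12 libraries and was the highest member, followed by Psmd8 at 9133, Psmb10 at 6159 and Psmb8 at 5544. The other beta subunits lay between 610 (Psmb5) and 3105 (Psmb4), the alpha subunits between 216 (Psma3) and 3012 (Psma7), the ATPases between 891 (Psmc2) and 2163 (Psmc3) and the other non-ATPase subunits between 384 (Psmd11) and 2022 (Psmd4). With LPS Psmb10 averaged 11034 per kilobase and Psmb8 8950 in Lyz2Cre-BHLHE40-Fl, and 10883 and 9328 in Lyz2Cre. Levels of some genes are uncertain because 10 members have a copy elsewhere in the genome that is at least 95% identical over at least 100 bases on the same strand. The 4 lowest members of the core rings, Psma3, Psma5, Psmb5 and Psmb3, were among these 10, and Psmb5 has a pseudogene 98.9% identical over 796 bases. Psmd1 and Psmg3 share 305 and 238 bases with other genes annotated at their own locus on the same strand. Reads that match more than 1 gene may have been dropped or split, and their part in the levels and in the Psmb8 over Psmb5 ratio was not tested.

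Genes that act with the proteasome were read from 4 lists, whose counts stand beside the shares of all genes tested. With LPS those shares were 24.9% higher and 25.6% lower in Lyz2Cre-BHLHE40-Fl and 25.0% and 23.9% in Lyz2Cre, but 12.6% and 46.1%, and 11.5% and 45.8%, with equal totals, and 20.8% and 28.5%, and 21.1% and 27.6%, under quantile normalization. Between labels they were 17.7% higher and 19.8% lower in Lyz2Cre-BHLHE40-Fl with LPS and 15.0% and 16.6% without it, but 29.9% and 10.8%, and 24.6% and 12.2%, with equal totals. Of 12 tested genes for assembly and transcription of the proteasome, 7 were higher and 2 lower with LPS in Lyz2Cre-BHLHE40-Fl, and 8 higher and 3 lower in Lyz2Cre. With equal library totals the splits were 4 higher and 6 lower in Lyz2Cre-BHLHE40-Fl and 2 higher and 6 lower in Lyz2Cre, and under quantile normalization 5 higher and 3 lower, and 4 higher and 4 lower. Pomp, the maturation factor of the core, averaged 3239 with LPS and 1600 in controls of Lyz2Cre-BHLHE40-Fl (log2 1.02) and 3121 with LPS and 2197 in controls of Lyz2Cre (log2 0.51, but -0.22 with equal totals). Nfe2l1, the factor that drives proteasome genes when the protease is inhibited, averaged 12172 with LPS and 4052 in controls of Lyz2Cre-BHLHE40-Fl (log2 1.58) and 10740 with LPS and 5786 in controls of Lyz2Cre (log2 0.89, but -0.05 under quantile normalization). Ddi2, the protease that activates it, fell with LPS in both labels (log2 -1.96 and -1.88). Nfe2l2, the antioxidant regulator, averaged 7596 with LPS and 8619 in controls of Lyz2Cre-BHLHE40-Fl (log2 -0.18, limma adjusted p = 0.0494) a call that leaving out any of 5 libraries ended (Lyz2Cre-BHLHE40-Fl LPS replicates 1, 2 and 3 and control replicates 1 and 3). In Lyz2Cre it averaged 10955 with LPS and 6741 in controls (log2 0.70), but the change was -0.03 with equal totals and -0.27 under quantile normalization.

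Of 15 regulators of the inducible members 13 were higher and 1 lower with LPS in each label, and without LPS 11 were lower and none higher in libraries labelled Lyz2Cre-BHLHE40-Fl than in those labelled Lyz2Cre. With equal totals 13 were higher and 2 lower with LPS in Lyz2Cre-BHLHE40-Fl and 11 higher and 3 lower in Lyz2Cre, and 9 were lower and 1 higher between labels without LPS. Irf1 averaged 49343 with LPS and 936 in controls of Lyz2Cre-BHLHE40-Fl, and 48121 with LPS and 3378 in controls of Lyz2Cre. Without LPS it was lower in Lyz2Cre-BHLHE40-Fl (log2 -1.85, limma adjusted p = 5.88e-13), under each scaling. With LPS it was not called different between labels in the deposited scaling (log2 0.04, limma adjusted p = 0.732), but was called higher in Lyz2Cre-BHLHE40-Fl with equal totals (0.32) and under quantile normalization (0.36).

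Of 12 genes of MHC class I presentation 9 were higher and 2 lower with LPS in each label, all 12 were lower in controls labelled Lyz2Cre-BHLHE40-Fl and 7 were lower in the LPS libraries of that label, with none higher. All 12 were lower without LPS under each scaling. With LPS over control, equal totals gave 8 higher and 3 lower in Lyz2Cre-BHLHE40-Fl and 5 higher and 4 lower in Lyz2Cre, quantile normalization 4 higher and 6 lower in Lyz2Cre, and between labels with LPS both gave 2 higher and 5 lower. Tap1, the neighbour of Psmb9, averaged 34453 with LPS and 861 in controls of Lyz2Cre-BHLHE40-Fl, and 40636 with LPS and 4318 in controls of Lyz2Cre. H2-K1, a class I heavy chain, averaged 52552 with LPS and 15050 in controls of Lyz2Cre-BHLHE40-Fl, and 139510 with LPS and 75163 in controls of Lyz2Cre (log2 0.90, but -0.32 under quantile normalization). It was lower in Lyz2Cre-BHLHE40-Fl than in Lyz2Cre with LPS as well as without it (log2 -1.41 with LPS, limma adjusted p = 7.76e-09). Of 17 ubiquitin genes and shuttles 12 were higher and 3 lower with LPS in Lyz2Cre-BHLHE40-Fl and 11 higher and 2 lower in Lyz2Cre, splits that equal totals turned to 4 higher and 8 lower, and 4 higher and 11 lower. Between labels 3 were higher and 2 lower in controls labelled Lyz2Cre-BHLHE40-Fl (5 and 0 with equal totals).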

How the data were processed

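Total RNA of peritoneal macrophages was isolated with a column kit and sequenced on Illumina libraries, per the labels' protocols. The submitters' processing notes name mm10, STAR, Cufflinks and Cuffdiff with no role or order, and the read counter, its annotation and its strand setting are not stated there or in the labels. The deposited values are a signal: reads per gene over 1 factor per library, rounded to 1 decimal, as judged from the values; no source used here records that division. In each library 100% of the values were whole multiples of 1 step within 0.06. The rows held 53465 identifiers, of which 53360 are in GENCODE M21.

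Tested genes reached a value of 1 in 3 or more libraries, and the test was limma 3.58.1 (trend, log2(value + 1), 1 mean per group over 12 libraries, R 4.3.3). Log2 changes understate those of low genes. Adjusted p-values are Benjamini-Hochberg over 20419 genes, called below 0.05. Folds are ratios of means, and levels per kilobase divide by 1 principal transcript per gene. Ratios were tested by exact permutation. Alternatives were pseudocounts of 0.1 and 5, no filter, a filter at 5, equal library totals, median-of-ratios, TMM and quantile scaling, edgeR 4.0.16 on recovered reads, a fit to just the compared groups, a block for the replicate number and each library left out. The limma and edgeR fits were tested on simulated data. Within groups, libraries differed beyond sampling noise (chi-square per degree of freedom 7.35 to 72.2 over 12 pairs), so none was counted as a repeat of the same library.

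Members and gene lists were chosen with earlier results of these data known, so lists are described by counts and medians with no test. Named members are the inducible ones with their counterparts, up to 5 others per direction and contrast with the largest called change, and the highest and lowest per class by level. Up to 4 genes per pathway list and contrast were eligible. Of the list of 13 genes for assembly and transcription, 1 was not analysed here, and Ecpas was found as AI314180. Psmb7 and 7 other members had no promoter match.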

Additional observations from a re-analysis of the deposited data

Results flagged for a closer look

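For 13 named members the change with LPS differed between the genotype labels by the interaction test (limma adjusted p below 0.05), and each difference is given as the log2 change in libraries labelled Lyz2Cre-BHLHE40-Fl minus that in libraries labelled Lyz2Cre. For the inducible members it was 1.79 for Psmb9, 1.46 for Psmb8, 1.23 for Psme2, 0.85 for Psmb10 and 0.72 for Psme1. For subunits of the 19S cap it was 0.90 for Psmd7, 0.57 for Psmc5, 0.41 for Psmd1, 0.32 for Psmc2 and -1.06 for Psmd8. For subunits of the core it was 0.45 for Psma3, 0.35 for Psma6 and -0.44 for Psmb6. Psmd8 was the member whose change was called in opposite directions in the 2 labels, and its call in Lyz2Cre turned under quantile normalization.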

How the results depend on the processing

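The 5 inducible members kept their calls under each alternative for LPS in both labels, for genotype label without LPS and for the interaction. Equal library totals gave 18 members higher and 17 lower for LPS in Lyz2Cre-BHLHE40-Fl, 15 and 22 for LPS in Lyz2Cre, 19 and 4 for genotype label with LPS and 6 and 12 without LPS. Quantile normalization gave 5 lower for LPS in Lyz2Cre-BHLHE40-Fl, 25 higher and 8 lower for LPS in Lyz2Cre, 10 and 7 for genotype label with LPS and 4 higher without LPS. The replicate number as a block left 1 member higher for genotype label without LPS, as did TMM, edgeR, the compared groups alone and no filter. Same-numbered libraries did not deviate together (correlations of -0.252 to 0.0750 over 18 pairs), and the main fit did not pair them. The labels do not say whether they shared an origin, and these correlations cannot tell it.

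Quantile normalization sets each value by its rank among the genes of its library. Under it the log2 ratio of Psmb8 over Psmb5 was 2.39 and 0.31 for LPS in Lyz2Cre-BHLHE40-Fl and Lyz2Cre, 0.76 for genotype label with LPS and 2.08 for the interaction. That of Psmb9 over Psmb6 was 3.62 and 1.22 for LPS and -2.16 for genotype label without LPS. That of Psmb10 over Psmb7 was 2.35 and 1.43 for LPS, 0.33 for genotype label with LPS and 0.92 for the interaction.

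Signs turned for named members under equal totals. For LPS in Lyz2Cre-BHLHE40-Fl the log2 values were then -0.35 (Psma1), -0.19 (Psmb2), -0.39 (Psmb5), -0.38 (Psmc3), -0.57 (Psmd1), -0.33 (Psme3), -0.044 (Psmf1) and -0.35 (Psmg2). For LPS in Lyz2Cre they were -0.67 (Psma1), -0.043 (Psma7), -0.24 (Psmb2), -0.20 (Psmb5), -0.34 (Psmc2), -0.37 (Psmc3), -0.66 (Psmc5), -0.36 (Psmd3), -0.33 (Psmd7), -0.70 (Psme3), -0.19 (Psmf1), -0.026 (Nfe2l2) and -0.22 (Pomp). For genotype label with LPS they were 0.0029 (Psma1), 0.13 (Psmd1), 0.28 (Psmd5), 0.21 (Psme4) and 0.24 (Psmf1). Under quantile normalization the sign turned to -0.16 (Psma1), -0.33 (Psmc3) and -0.47 (Psmd1) for LPS in Lyz2Cre-BHLHE40-Fl, to -0.46 (Psma1), -0.22 (Psmc3), -0.28 (Psmd8), -0.32 (H2-K1), -0.046 (Nfe2l1) and -0.27 (Nfe2l2) for LPS in Lyz2Cre, and to 0.0029 (Psme1) and 0.17 (Psme4) for genotype label with LPS. The cause was not tested. Among all alternatives for named genes, 3440 values kept their direction and call, 161 kept the direction and lost the call, and 52 gained it.

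Leaving out each library gave 38 to 41 members higher and 1 to 4 lower for LPS in Lyz2Cre-BHLHE40-Fl, 9 to 19 lower for genotype label with LPS, 1 to 2 higher for genotype label without LPS and 2 to 4 lower for the interaction. The median of the inducible minus that of the constitutive members was 1.46 to 1.82 for LPS in Lyz2Cre and 0.99 to 1.28 for the interaction. With 3 libraries a group, ratios could not be tested between 2 groups below an exact p of 0.1, and differences within the SEs given were not detectable.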

Other observations

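The 3 Lyz2Cre control libraries differed among themselves in 4 of the 5 inducible members and in Irf7 and Tap1 in the same order. Irf7 stood at 8054, 14704 and 2388 in replicates 1, 2 and 3, and Tap1 at 4229, 5615 and 3109. Psmb8 stood at 4948, 5234 and 3967, Psmb9 at 1176, 1257 and 789, Psmb10 at 2427, 2503 and 1928 and Psme2 at 1019, 1268 and 907 in the same libraries. Replicate 2 was the highest and replicate 3 the lowest in all 6 genes. Psme1, at 2772, 3304 and 2842, was also highest in replicate 2 but lowest in replicate 1. The Lyz2Cre-BHLHE40-Fl controls, with Irf7 at 211, 207 and 207, showed no such spread in that gene. Without Lyz2Cre control replicate 2 or replicate 3 the median of the inducible members exceeded that of the constitutive ones by 1.82 or 1.46 with LPS in Lyz2Cre, in place of 1.63.

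Ifnb1, the gene of interferon beta, stood at 112, 92.0 and 80.1 in the Lyz2Cre-BHLHE40-Fl LPS libraries, against 413, 895 and 770 in the Lyz2Cre LPS libraries. Ubd, an inducible ubiquitin-like protein that delivers proteins to the proteasome, stood at 31.6, 24.5 and 32.6 in the Lyz2Cre-BHLHE40-Fl LPS libraries and at 51.4, 38.6 and 51.3 in the Lyz2Cre LPS libraries. The controls labelled Lyz2Cre-BHLHE40-Fl were at 0 for both genes. Those labelled Lyz2Cre were at or near 0 too, at 0.0, 3.2 and 0.0 for Ifnb1 and 0.0, 0.0 and 3.3 for Ubd.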
